A study of Mus musculus with 8 samples.

Results

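The Arp2/3 complex subunit genes were examined in alphaTC6 cells, a mouse line derived from the alpha cells of the pancreas, which make glucagon, after transfection of small interfering RNAs (siRNAs) against Klf4, a zinc finger transcription factor. The 9 members, Actr2, Actr3, Arpc1a, Arpc1b, Arpc2, Arpc3, Arpc4, Arpc5 and Arpc5l, were taken by symbol from the 55536 genes of the count table, and each symbol matched a single gene. They were chosen because Arpc5 RNA stood apart from the other subunits after Klf4 siRNA, so the differences of the members between treatments are given as a description, with no test. Poly(A) RNA was measured in 8 libraries. In 4 of them wild-type cells had received a scramble siRNA, and in the other 4 a pool of Klf4 siRNAs, in both cases by a reverse transfection of 48 h with a lipid reagent. All 8 libraries came from the same cell line, called wild-type in the labels (whose extraction text speaks of islets), and the libraries of each treatment were stated to be biological replicates. The labels also put scramble replicates 1 and 2 and Klf4 siRNA replicates 1, 2 and 4 in batch 1, and scramble replicates 3 and 4 and Klf4 siRNA replicate 3 in batch 2. What a batch was (culture, transfection, library or sequencing run) was not given in the sources used here.

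The Arp2/3 complex binds the side of an existing actin filament and starts a daughter filament there, which makes the branched networks behind membrane protrusion, endocytosis and vesicle movement. ARP2 and ARP3, encoded by Actr2 and Actr3, resemble actin and form the first subunits of the new filament, while the ARPC subunits hold them and contact the mother filament. The complex is inactive until a nucleation promoting factor of the WASP and WAVE families binds it, and in endocrine cells the cortical actin network lies between secretory granules and the plasma membrane. The ARPC1 and ARPC5 positions can each be filled by either of a pair of paralogues (Arpc1a or Arpc1b, Arpc5 or Arpc5l), and complexes with ARPC1B and ARPC5L are known to be more active in branching than those with ARPC1A and ARPC5.

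Total counts were between 45954151 and 64185987 per library. Klf4, the siRNA target, had 39.2, 35.1, 46.3 and 46.8 CPM (counts scaled by TMM library size) in scramble replicates 1 to 4 and 12.5, 11.5, 19.8 and 18.8 CPM in Klf4 siRNA replicates 1 to 4, without overlap. It fell by 1.33 on the log2 scale (standard error 0.17, edgeR adjusted p = 0.0083; 0.0524 without scramble replicate 1 and 0.104 in batch 1 alone). All 8 alpha cell markers examined were present, Gcg, the glucagon gene, at 1070 to 1270 CPM in batch 1 and 7560 to 8900 CPM in batch 2. Cell type marker CPM were scaled by total counts, without TMM. The beta cell genes Ins1, Ins2, Pdx1 and Ucn3 had 0 counts in all 8 libraries, although Nkx6-1, also on the beta cell list, had at least 105 CPM. Across all 16333 genes tested, 1909 (11.7%) passed an adjusted p of 0.05 between treatments in the fit with batch as a term (edgeR quasi-likelihood, Benjamini-Hochberg adjustment over all tested genes). The median absolute log2 difference of those genes was 0.17. The count was 934 without scramble replicate 1, 1012 when scramble replicate 2 was left out, and 1232 without the third Klf4 siRNA library. In the same fit 5343 genes (32.7%) differed between batches.

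The stretches before the start sites of Arpc5, Arpc1b and Arpc1a are shown because Arpc5 was the member that differed most between treatments, Arpc1b the member that differed most between batches, and Arpc1a is the paralogue of Arpc1b. The sequences come from the RefSeq promoter table (GRCm38.p6), which held 8 of the 9 members (not Arpc5l), and only bases outside every exon of the GENCODE M21 annotation are printed. Capitals mark the GC box GGGCGG on either strand, the letters bound by Sp1 and some KLF proteins. The Arpc5 stretch is chr1:152766352-152766541 (plus strand), the Arpc1b stretch chr5:145114006-145114214 (plus strand) and the Arpc1a stretch chr5:145083619-145083829 (plus strand).
Arpc5: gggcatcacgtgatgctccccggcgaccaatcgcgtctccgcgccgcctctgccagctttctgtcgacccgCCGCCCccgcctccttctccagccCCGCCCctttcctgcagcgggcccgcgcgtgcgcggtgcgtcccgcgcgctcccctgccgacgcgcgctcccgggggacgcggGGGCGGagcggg
Arpc1b: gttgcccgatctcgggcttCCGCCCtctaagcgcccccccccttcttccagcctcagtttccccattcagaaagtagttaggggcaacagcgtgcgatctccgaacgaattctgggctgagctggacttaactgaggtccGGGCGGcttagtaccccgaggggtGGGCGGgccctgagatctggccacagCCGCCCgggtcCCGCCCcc
Arpc1a: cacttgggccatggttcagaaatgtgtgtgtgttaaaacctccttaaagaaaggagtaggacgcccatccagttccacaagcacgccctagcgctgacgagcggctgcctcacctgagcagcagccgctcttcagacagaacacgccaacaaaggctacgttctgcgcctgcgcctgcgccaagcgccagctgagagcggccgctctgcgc
The Arpc5 stretch of 190 bases held 3 GC boxes, that of Arpc1b 5 in 209 bases and that of Arpc1a 0 in 211 bases. In the full 250 bases before the RefSeq start, 5 of the 8 members had at least 1 GC box (Arpc5, Arpc1b, Arpc2, Actr2 and Actr3), against 32.7% of the 32851 promoters in the table. The KLF-type CACCC box CCACNCCC, searched on both strands, matched in 0 of the 8, against 15.9% of all promoters. As the second motif had no match, it overlapped the first nowhere in these windows. A match or its absence describes these letters alone.

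Arpc5 (ENSMUSG00000008475, chromosome 1, 152766542 to 152775597, plus strand, 3 annotated transcripts) encodes the small ARPC5 subunit, which lies beside ARPC4 at the edge of the complex. Its normalised levels were 157.2, 160.9, 163.1 and 167.8 CPM in scramble replicates 1 to 4. After Klf4 siRNA they were 92.2, 100.5, 109.8 and 95.3 CPM in replicates 1 to 4. Every Klf4 siRNA library was thus below every scramble library, and Klf4 siRNA replicate 3, the library of batch 2, was the highest of its group. The means were 162.3 ± 4.44 and 99.5 ± 7.70 CPM (SD, n = 4 each), a log2 difference of -0.68 with a standard error of 0.034, or 62.5% of the scramble level. It was -0.73 within batch 1 and -0.59 within batch 2. In bulk RNA, fewer cells with a transcript and less of it per cell cannot be told apart.

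**Figure D1:**
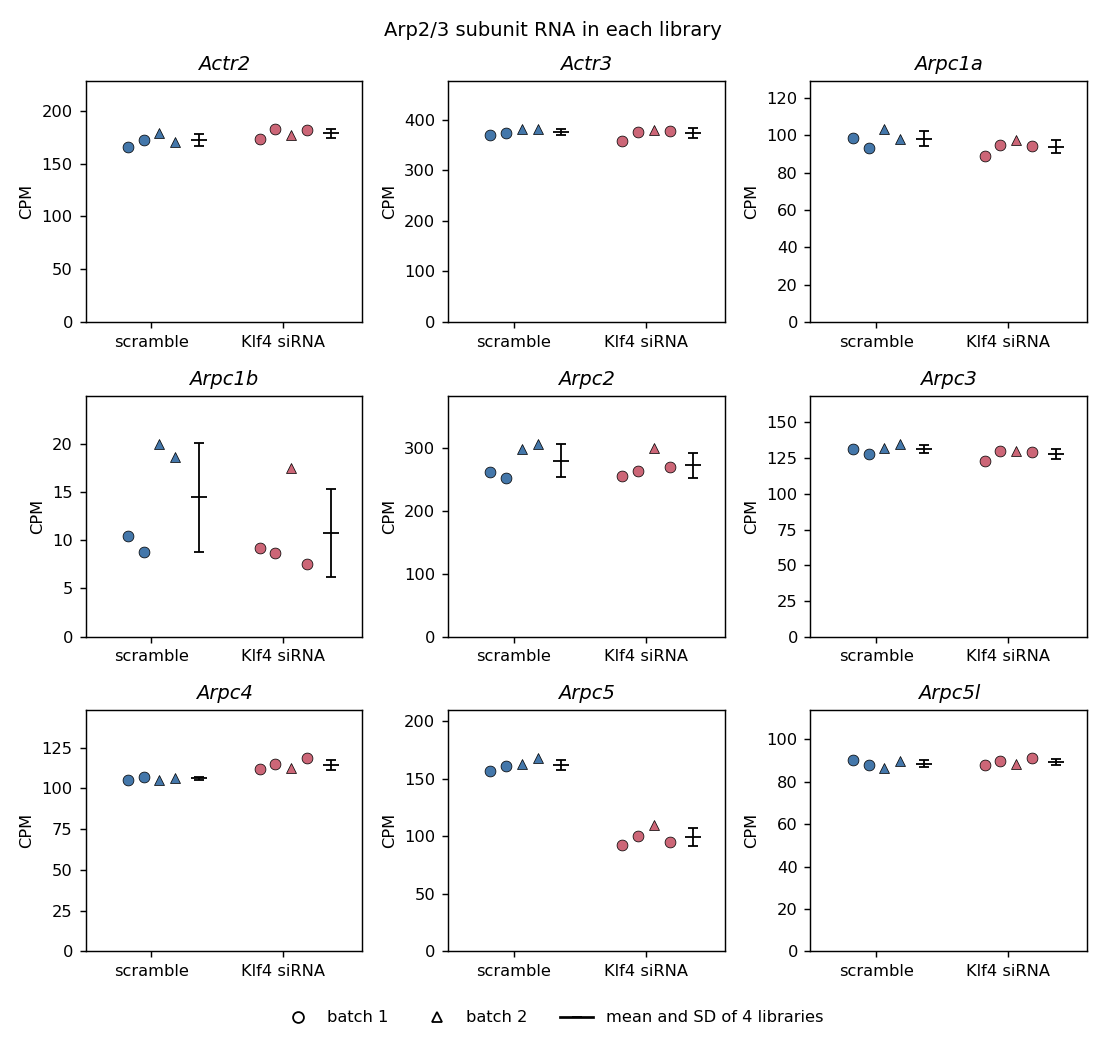
Normalised level of each Arp2/3 subunit in each library (CPM, each panel from 0), by treatment, with batch 1 as circles and batch 2 as triangles; bars are the mean and SD of 4 libraries. Arpc5 lies between 157.2 and 167.8 CPM in scramble and between 92.2 and 109.8 CPM in Klf4 siRNA libraries, while Arpc1b separates by batch.

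Arpc5l (ENSMUSG00000026755, chromosome 2, 39005348 to 39015877, plus strand) encodes the alternative subunit for the same position. It had 90.1, 87.97, 86.4 and 89.8 CPM in scramble replicates 1 to 4 and 88.04, 89.6, 88.3 and 91.0 CPM in Klf4 siRNA replicates 1 to 4. The treatment groups overlapped throughout, and the log2 difference was 0.0070 with a standard error of 0.029. Arpc5 and Arpc5l together had 247 to 258 CPM with scramble siRNA and 180 to 198 CPM with Klf4 siRNA, and Arpc5l was not higher beside the lower Arpc5.

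Per kb of merged exons, Arpc5 made up 77.5, 78.3, 78.9 and 78.7% of the pair in scramble replicates 1 to 4. After Klf4 siRNA it made up 67.4, 68.9, 71.1 and 67.4%. The means were 78.4 ± 0.62% and 68.7 ± 1.75% (SD, n = 4 each). The absolute share depends on the length taken for Arpc5l, whose merged exons span 4498 bases and whose principal transcript spans 1339. With principal transcripts the means were 56.2 ± 0.85% and 43.8 ± 1.99%, so the order of the paralogues after Klf4 siRNA changed with the length used while the lower share of Arpc5 did not. The coding sequences of Arpc5 and Arpc5l (456 and 462 bases) were identical at 71.3% of aligned bases, and the longest stretch they share is 21 bases:
Arpc5 and Arpc5l: ctccagtggcatgaaaaggcc
No word of 50 bases in the Arpc5 transcripts occurs in Arpc5l. The only other gene holding any was the processed pseudogene Gm16372, with 38 of 2272 such words (1.67%) and at most 18 counts in a library.

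The other 8 subunits had log2 differences between -0.17 (Arpc1b) and 0.10 (Arpc4), with a median of 0.0020, and 6 of the 8 lay within 0.06 of 0. Over these 8, Arpc5 stood 0.68 lower than the median on the log2 scale. Per library, Arpc5 was at 144, 152, 133 and 138% of the geometric mean of the other 8 in scramble replicates 1 to 4. After Klf4 siRNA it was at 87.2, 92.2, 91.2 and 88.4%. The geometric mean itself was 115 ± 8.26 and 111 ± 6.60 CPM (SD, n = 4 each), and its groups overlapped. In the fit, 2 of the 9 members passed the threshold between treatments, Arpc5 lower and Arpc4 higher, beside 11.7% of all genes (6.81% lower, 4.88% higher). The same 2 of 9 were the members whose treatment groups did not overlap, beside 10.5% of all genes (5.55% lower, 4.97% higher). As the members were chosen on this contrast, nothing is read from these counts.

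**Figure D2:**
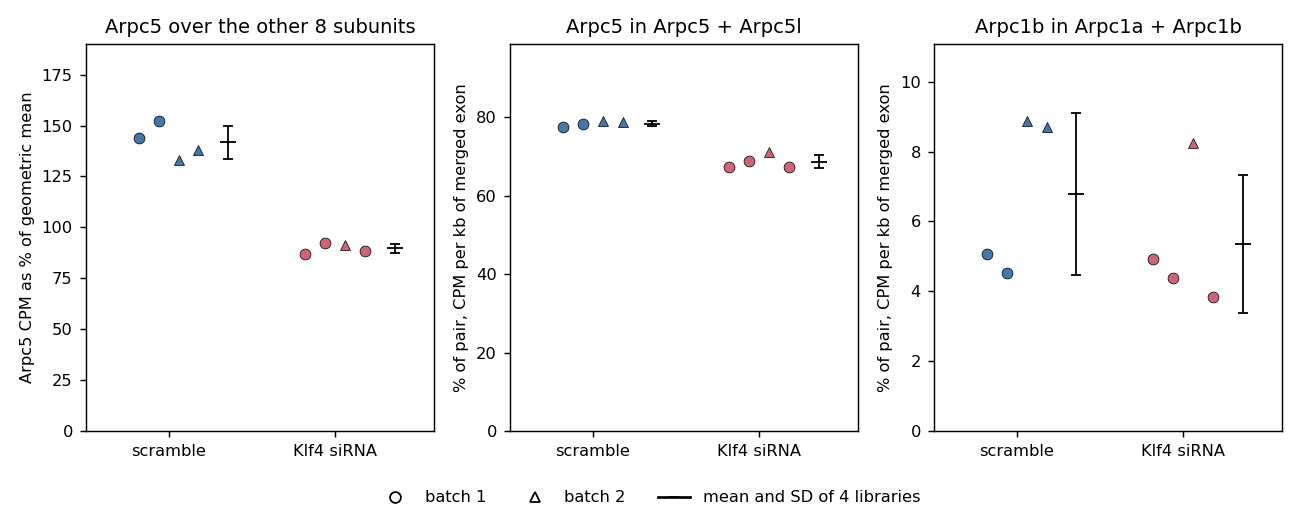
Left, Arpc5 CPM as a percentage of the geometric mean of the other 8 subunits. Middle and right, the share of Arpc5 in the Arpc5 and Arpc5l pair and of Arpc1b in the Arpc1a and Arpc1b pair (percent of CPM per kb of merged exon). Points are libraries (circles batch 1, triangles batch 2) and bars the mean and SD of 4. The Arpc5 measures separate the treatments (133% or more against 92.2% or less on the left), whereas the Arpc1b share separates the batches.

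The RNA levels of Actr2 and Actr3 overlapped between treatments. Actr3 (ENSMUSG00000026341, chromosome 1, 125392905 to 125435727, minus strand) had 369.6, 373.0, 381.0 and 380.6 CPM in scramble replicates 1 to 4 and 358.1, 376.5, 379.7 and 377.3 CPM in Klf4 siRNA replicates 1 to 4. The groups overlapped, and the log2 difference was -0.0029 with a standard error of 0.028. Of the 50-base words in Actr3 transcripts, 26.3% also occur in other genes, chiefly the processed pseudogene Gm8822, which had 19.2 ± 0.91 CPM with scramble and 18.6 ± 0.62 CPM with Klf4 siRNA (SD, n = 4 each). Actr2 (ENSMUSG00000020152, chromosome 11, 20062304 to 20112913, minus strand) had 166.1 to 179.5 CPM with scramble and 172.9 to 182.6 CPM with Klf4 siRNA, again with overlap (log2 difference 0.057, standard error 0.030). Actr3b, a paralogue of Actr3 that is no member, had 15.0 ± 1.28 and 15.0 ± 1.70 CPM (SD, n = 4 each), far below Actr3 in counts.

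Arpc2 and Arpc4 form the core dimer that clamps the mother filament. Arpc4 (ENSMUSG00000079426, chromosome 6, 113378115 to 113390448, plus strand) had 105.3, 107.2, 105.2 and 106.5 CPM in scramble replicates 1 to 4 and 111.7, 114.9, 112.2 and 118.3 CPM in Klf4 siRNA replicates 1 to 4. Its groups did not overlap, with the Klf4 siRNA libraries higher by 0.10 on the log2 scale (standard error 0.029), or 107% of scramble. Arpc4 shares 283 exon bases with Ttll3 on the same strand, a gene at 12.5 CPM in scramble libraries. Arpc2 (ENSMUSG00000006304, chromosome 1, 74236084 to 74268209, plus strand) had 252.5 to 306.0 CPM with scramble and 255.6 to 299.7 CPM with Klf4 siRNA, with a log2 difference of 0.018 (standard error 0.028). Its values followed batch, as described below, and without the batch term the difference was -0.038.

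Arpc3 (ENSMUSG00000029465, chromosome 5, 122391878 to 122414184, plus strand), which bridges ARP3 to the rest of the complex, had 128.2 to 135.0 CPM with scramble and 122.7 to 130.3 CPM with Klf4 siRNA (log2 difference -0.030, standard error 0.028). Arpc1a (ENSMUSG00000029621, chromosome 5, 145083830 to 145108761, plus strand) encodes the WD repeat subunit that faces the nucleation promoting factor, and had 93.0 to 103.2 and 88.9 to 97.5 CPM (log2 difference -0.047, standard error 0.033). Both genes had overlapping groups. The difference of Arpc5 from each of these subunits was alike: its log2 ratio to Arpc3 went from 0.30 ± 0.028 to -0.37 ± 0.085, and that to Arpc1a from 0.73 ± 0.068 to 0.081 ± 0.066 (SD, n = 4 each).

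Arpc1b (ENSMUSG00000029622, chromosome 5, 145114215 to 145130705, plus strand) lies next to Arpc1a and is the form that prevails in blood cells. It was the lowest member in every library. Its levels were 10.5, 8.80, 19.99 and 18.6 CPM in scramble replicates 1 to 4 and 9.18, 8.67, 17.5 and 7.52 CPM in Klf4 siRNA replicates 1 to 4. The 3 libraries of batch 2 were the 3 highest, in both treatments. With batch as a term the log2 difference between treatments was -0.17 with a standard error of 0.069, and without that term it was -0.44. Batch 2 holds 2 scramble libraries and 1 Klf4 siRNA library.

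Between batches, which the choice of members did not use, Arpc1b was 2.03-fold higher in batch 2 (log2 difference 1.02, standard error 0.069, edgeR adjusted p = 4.34e-10). The mean was 8.92 CPM over 5 libraries of batch 1 and 18.7 CPM over 3 of batch 2, and all 3 libraries of batch 2 were higher than all 5 of batch 1. Arpc2 was 1.16-fold higher in batch 2 (log2 difference 0.21, standard error 0.029, edgeR adjusted p = 7.78e-06), from a mean of 260.3 to 301.0 CPM, also without overlap. Arpc5 had a log2 difference of 0.12 between batches (standard error 0.034, edgeR adjusted p = 0.014), which did not pass the threshold without Klf4 siRNA replicate 3 (0.057, edgeR adjusted p = 0.376). In all, 3 of the 9 members passed, all higher in batch 2, beside 32.7% of all genes (16.8% higher), and 3 of 9 (Arpc1b, Arpc2 and Actr3) had batches that did not overlap, also higher in batch 2, beside 29.4% (15.8% higher). In either direction those shares are near the background. The shares higher in batch 2 are above it, but rest on 3 genes and were not tested, so they are no result about the family as a whole.

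The remaining 6 members had log2 differences between batches from -0.018 (Arpc4) to 0.072 (Arpc1a, edgeR adjusted p = 0.110), and none of the 6 passed the threshold. The ratio of Arpc1b to Arpc1a per kb of merged exon restates the difference of Arpc1b beside a flatter Arpc1a and is no separate evidence. On the log2 scale it was -4.39 ± 0.16 in batch 1 (SD, n = 5) and -3.41 ± 0.059 in batch 2 (SD, n = 3), a difference of 0.99 (two-sided exact permutation test, p = 0.0179, the smallest that 56 splits allow; 0.0358 after adjustment over the 2 ratios tested). The ratio was -4.31 in batch 1 and -3.37 in batch 2 within scramble libraries, and -4.45 and -3.47 within Klf4 siRNA libraries. Arpc1b accordingly made up 3.85 to 5.06% of the pair in batch 1 and 8.25 to 8.86% in batch 2. The other ratio, Arpc5l to Arpc5, holds the gene chosen for its treatment difference, and the batches hold the treatments in unequal shares, so its values are given within treatments only. They were -1.82 in batch 1 and -1.89 in batch 2 for scramble libraries, and -1.08 and -1.30 for Klf4 siRNA libraries.

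Several other values moved with batch beside Arpc1b, and their part in its difference was not tested. The 4 leukocyte markers (Ptprc, Cd68, Lyz2 and Csf1r) summed to 2.03 to 2.27 CPM in batch 1 and 2.86 to 3.29 CPM in batch 2, with Ptprc, the pan-leukocyte gene, at 0 in 6 libraries and at most 1 count. The 3 duct markers summed to 1.06 to 1.61 CPM in batch 1 and 3.70 to 4.46 CPM in batch 2, nearly all of it Sox9, and the 8 beta cell markers to 109 to 126 and 138 to 151 CPM, mostly Nkx6-1. Of the alpha cell markers Gcg was higher in batch 2, as given above, while the other 7 summed to 7350 to 7740 CPM in batch 1 and 7360 to 7600 CPM in batch 2. Arpc1b shares 931 of its 5115 merged exon bases with Pdap1 on the opposite strand, and the use of strand in counting was not given. Pdap1 itself was alike in both batches (350.9 and 352.8 CPM, log2 difference 0.016, standard error 0.035).

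**Figure D3:**
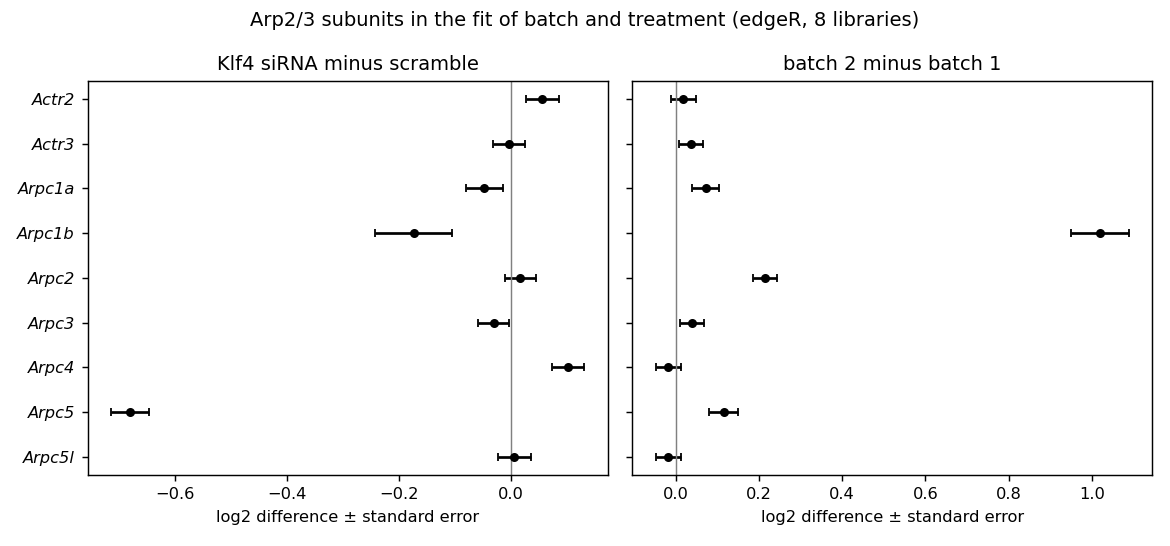
Log2 difference of each subunit in the fit of batch and treatment over 8 libraries, with its standard error; left, Klf4 siRNA minus scramble, right, batch 2 minus batch 1. Arpc5 is at -0.68 on the left with the other 8 between -0.17 and 0.10, and Arpc1b is at 1.02 on the right.

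The response of the members to Klf4 siRNA was also compared between batches. Their interaction was called for 0 of the 9 members and 0 of all genes (edgeR quasi-likelihood, 0%), and 0 of the 9 members and 540 of all genes had an unadjusted p under 0.05. Arpc5 had the smallest unadjusted p of the members, 0.0528, with an interaction of 0.14 on the log2 scale and a standard error of 0.066 (edgeR adjusted p = 0.999). Batch 2 held a single Klf4 siRNA library, so this test had little precision.

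Levels were compared between subunits per kb of merged exon in the 4 scramble libraries. As background, the protein complex holds 1 copy of each subunit position. Arpc2 was highest at 137.3 ± 13.0 CPM per kb, followed by Actr3 at 81.2 ± 1.22, Arpc5 at 71.3 ± 1.95, Arpc3 at 47.7 ± 1.03, Arpc4 at 45.7 ± 0.42, Arpc1a at 38.3 ± 1.62, Actr2 at 33.1 ± 1.07, Arpc5l at 19.7 ± 0.38 and Arpc1b at 2.83 ± 1.11 (SD, n = 4 each). The ranges of neighbours in this order did not overlap. With the length of the principal transcript in place of merged exons, Arpc2 stayed first and Arpc1b last, but Arpc3 (146.5 ± 3.16) lay level with Actr3 (146.6 ± 2.21) and Arpc4 (46.7 ± 0.42) level with Actr2 (47.4 ± 1.53), with overlapping ranges. The order in the middle thus depends on which exons are counted as expressed.

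**Figure D4:**
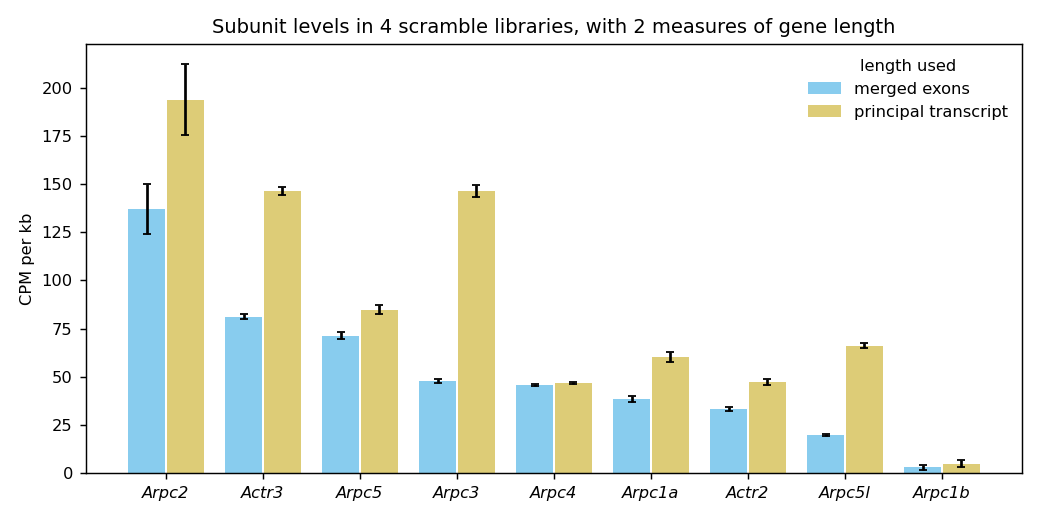
Mean level of each subunit in the 4 scramble libraries (CPM per kb, bars from 0, error bars SD), with gene length taken as all merged exons or as the annotated principal transcript. Arpc2 is highest and Arpc1b lowest with both lengths, while Arpc3 and Arpc5l change most as a ratio between the lengths.

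Spread among libraries, after batch and treatment were taken out, was small for most members. The residual SD on the log2 scale was 0.026 for Arpc5l, 0.027 for Actr3, 0.029 for Arpc4, 0.032 for Arpc3 and 0.034 for Arpc2. It was 0.045 for Actr2, 0.048 for Arpc1a, 0.059 for Arpc5 and 0.13 for Arpc1b, the member with the fewest counts (399 to 1281 per library). The spread was thus narrowest in Arpc5l and widest in Arpc1b.

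The genes whose pattern was most like that of Arpc5 were named by Pearson's r of log2 CPM over 8 libraries, after batch means were taken out, among 9346 genes with a mean of at least 10 CPM. They were Lman2, a cargo receptor of the early secretory pathway (r = 0.999), Psmf1, a proteasome inhibitor (0.998), and Klhl24, an adaptor of a ubiquitin ligase (0.998). Their log2 differences between treatments were -0.52, -0.20 and -0.55. Klf4 itself had r = 0.944 to Arpc5. Among the subunits r was highest for Arpc1b (0.611) and lowest for Arpc4 (-0.890). These values follow the treatment that the libraries share and are given as a description.

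A neighbour of Arpc5 on chromosome 1 was looked at by position, outside the rule for naming. Rgl1, a regulator of Ral GTPases, ends 190 bases before Arpc5 and is read from the minus strand, so the printed stretch is the whole interval between the starts of both genes. Rgl1 had 157.3, 153.3, 166.5 and 163.9 CPM in scramble replicates 1 to 4 and 145.5, 143.2, 155.1 and 148.9 CPM in Klf4 siRNA replicates 1 to 4. It fell by 0.091 on the log2 scale (standard error 0.026, edgeR adjusted p = 0.029), although the groups overlapped. The longest run of bases that Arpc5 transcripts share with Klf4 transcripts on either strand was 13, a length that 63.1% of tested genes reach. Arpc1b shared 21 bases, which 0.974% of tested genes reach, and Arpc4 16 (14.7%). The other members shared 12 (Arpc1a) to 15 (Arpc2). The siRNA sequences were not given in the sources used here, so a match to them was not tested.

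Genes that act on the complex were examined in 6 lists of actin regulators with 123 genes, of which 108 were tested. Between treatments 20 of the 108 (18.5%) passed the threshold, 6 higher and 14 lower, beside 11.7% of all genes (4.88% higher, 6.81% lower), and the median log2 difference was -0.033 against 0.000043 over all genes. Without scramble replicate 2 the count was 11 and without Klf4 siRNA replicate 3 it was 13. Without the batch term it was 6: of the called genes named below, Coro1c, Ap1ar, Diaph1, Diaph2 and Tpm3 passed and the others did not (Wasf2, Jmy and Coro1b at edgeR adjusted p = 0.150, 0.172 and 0.207, the rest 0.122 to 0.717). Among genes averaging at least 5 CPM, 2010 of 10387 passed, a larger share than the 11.7%, and 23 list genes passed. The 11.7% is thus no background for genes of like level. These are counts with no test of the lists. The log2 differences of the genes that passed were at most 0.34 in size.

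Among 24 tested nucleation promoting factors and their partners, 2 passed. Wasf2, which encodes WAVE2, the activator of the complex below the plasma membrane, fell by 0.24 on the log2 scale (standard error 0.034, edgeR adjusted p = 5.16e-05). It had 57.3, 54.2, 49.6 and 50.2 CPM in scramble replicates 1 to 4 and 49.1, 45.9, 41.9 and 47.2 CPM in Klf4 siRNA replicates 1 to 4, without overlap. Jmy, an activator that also nucleates actin alone, rose by 0.15 (standard error 0.033, edgeR adjusted p = 0.0034), with overlapping groups. Wasl, encoding N-WASP, had 168.4 ± 9.68 and 176.8 ± 7.72 CPM (SD, n = 4 each) and did not pass (edgeR adjusted p = 0.438). The blood cell forms Was and Nckap1l had at most 2 and 4 counts in a library.

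Among 13 tested inhibitors and branch cofactors 3 passed, all lower. Coro1c, a coronin that binds actin filaments, had 266.5, 260.3, 265.4 and 265.1 CPM in scramble replicates 1 to 4 and 198.5, 203.8, 216.2 and 210.7 CPM in Klf4 siRNA replicates 1 to 4. The groups lay well apart, and it fell by 0.34 on the log2 scale (standard error 0.028, edgeR adjusted p = 6.76e-08), the largest change among called genes of the 6 lists. Coro1b, the coronin known to take part in removing branches, fell by 0.25 (standard error 0.038, edgeR adjusted p = 0.0002) with overlapping groups. It shares 13.5% of its exon bases with Ptprcap on the same strand. Ap1ar, whose product gadkin holds Arp2/3 at endosomal membranes, fell by 0.18 (standard error 0.031, edgeR adjusted p = 0.00064). Arpin, an inhibitor that competes with WAVE, and Cttn, cortactin, which steadies branches, did not pass (log2 differences 0.00029 and 0.035, edgeR adjusted p = 0.997 and 0.522).

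Formins, which nucleate unbranched filaments, went both ways: of 15 tested genes of that list, 3 rose and 2 fell. The count of 5 was 2 without scramble replicate 2 and 3 when scramble replicate 1 or 4 or Klf4 siRNA replicate 1 was left out. Diaph2 rose by 0.32 on the log2 scale (standard error 0.047, edgeR adjusted p = 0.00011), from 17.9 ± 0.77 to 22.3 ± 0.43 CPM (SD, n = 4 each), and its groups did not overlap. Diaph1 fell by 0.18 (standard error 0.029, edgeR adjusted p = 0.00028), from 81.9 ± 2.19 to 71.8 ± 1.04 CPM, also without overlap. Fmn1 fell by 0.23 (edgeR adjusted p = 0.049) but passed in only 1 of the 8 fits with a library left out, the one without Klf4 siRNA replicate 4 (adjusted p up to 0.260 in the others). Fmn2 and Diaph3 rose by 0.14 and 0.15 (edgeR adjusted p = 0.012 and 0.039). The groups of Fmn1 and Diaph3 overlapped, and those of Fmn2 did not. Without scramble replicate 2 neither Fmn2 nor Diaph3 passed (edgeR adjusted p = 0.0933 and 0.287), and Diaph3 was also lost when scramble replicate 1 or 4 or Klf4 siRNA replicate 1 or 4 was left out (up to 0.108).

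Of 28 tested actins and actin binding proteins 6 passed, all lower. The count was 1 without Klf4 siRNA replicate 3, 2 without scramble replicate 2, and 3 without scramble replicate 1 or Klf4 siRNA replicate 1. Tpm3, a tropomyosin that coats filaments, fell by 0.20 on the log2 scale (standard error 0.030, edgeR adjusted p = 0.00012), from 186.8 ± 4.98 to 162.0 ± 5.53 CPM (SD, n = 4 each). Tmsb10 and Tmsb4x, thymosins that bind actin monomers, fell by 0.14 and 0.25 (edgeR adjusted p = 0.011 and 0.023), and Evl, a filament elongation factor, by 0.11 (0.024). Tmsb10 was lost without scramble replicate 1 or Klf4 siRNA replicate 3 (edgeR adjusted p up to 0.0954). Tmsb4x was lost without scramble replicate 2 or Klf4 siRNA replicate 3 or 4 (up to 0.137), and Evl without scramble replicate 2 or Klf4 siRNA replicate 1 or 3 (up to 0.205). Limk1, a kinase of the cofilin pathway, and Capzb, which caps filaments, fell by 0.10 and 0.097 (edgeR adjusted p = 0.0295 and 0.0455). With a library left out, Limk1 passed in 2 of 8 fits (without scramble replicate 4 or Klf4 siRNA replicate 4; adjusted p up to 0.201) and Capzb in 1 of 8 (without Klf4 siRNA replicate 4; up to 0.235). The treatment groups overlapped for Tmsb10, Tmsb4x and Limk1, but not for Tpm3, Evl and Capzb. Tmsb4x also differed between batches (log2 difference 0.59, edgeR adjusted p = 3.55e-05). Actb, the cytoplasmic beta actin, had 1142 ± 12.4 and 1150 ± 24.6 CPM (SD, n = 4 each) and did not pass.

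Of the 9 actin-related genes outside the members, 2 passed (0 without scramble replicate 2). They are Actr3b, the paralogue of Actr3, and genes that serve dynactin and chromatin remodelling. Actr5, a chromatin remodelling subunit, fell by 0.19 on the log2 scale (standard error 0.041, edgeR adjusted p = 0.0045; 0.0501 without scramble replicate 2), and Actr10, of dynactin, rose by 0.10 (standard error 0.031, edgeR adjusted p = 0.040). Actr10 passed in 6 of 15 alternative fits and was lost when scramble replicate 1, 2 or 4 or Klf4 siRNA replicate 2 or 3 was left out (edgeR adjusted p up to 0.265). Actr5 and Actr10 both had overlapping groups. Actr3b did not pass (edgeR adjusted p = 0.578). Between batches 44 of the 108 list genes (40.7%) passed, 25 higher and 19 lower in batch 2, beside 32.7% of all genes, with a median log2 difference of 0.0061.

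**Figure D5:**
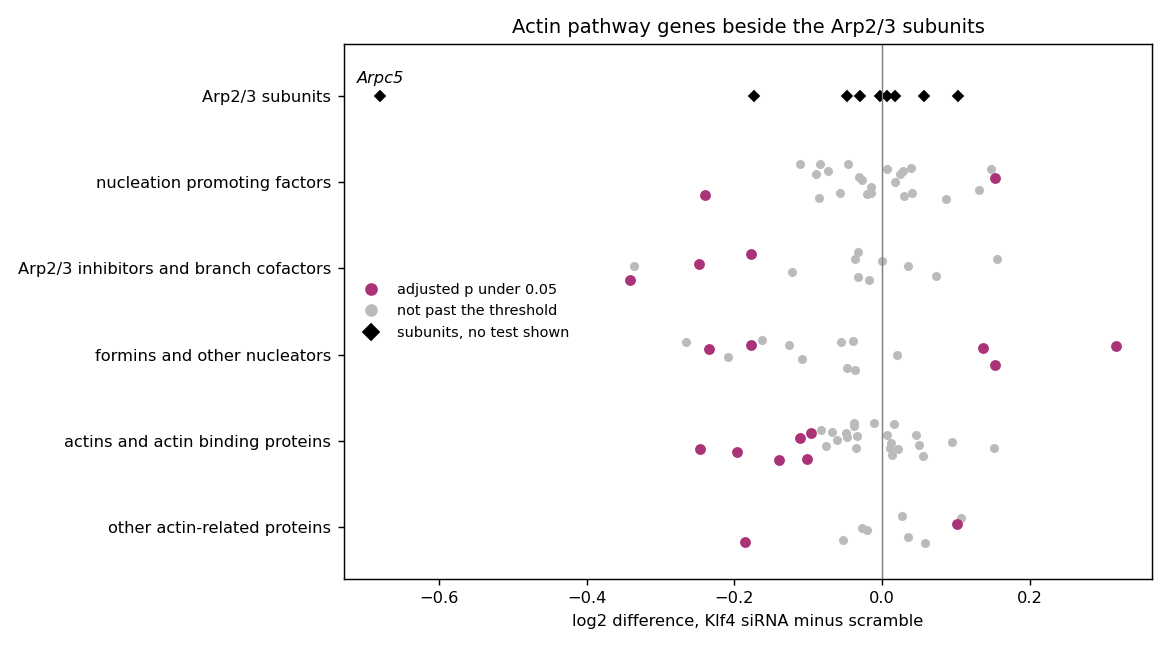
Log2 difference between Klf4 siRNA and scramble libraries for the 9 Arp2/3 subunits (diamonds) and the tested actin pathway genes of 5 of the 6 lists (circles, coloured where the edgeR adjusted p is under 0.05; height within a row is arbitrary). The coloured genes lie between -0.34 and 0.32, and Arpc5 is at -0.68.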

How the data were processed

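Poly(A) RNA of 8 alphaTC6 libraries was measured. The deposited values are raw counts per gene, made by the authors from reads trimmed with cutadapt (per the name of the table). FastQC, STAR, featureCounts, DESeq2 and mm10 are named in the submitters' processing notes, without versions; the strand setting and annotation were not given in the sources used here. All 55536 gene identifiers and symbols matched GENCODE M21 (GRCm38), used for lengths and positions. All 8 value columns were mapped and 0 rows lacked a gene.

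Genes were kept with filterByExpr (16333, all 9 members among them), scaled with TMM and fitted with batch and treatment in edgeR 4.0.16 (R 4.3.3; robust quasi-likelihood, 5 residual degrees of freedom), after the edgeR analysis with batch correction named in the design text. Standard errors are the absolute log2 difference over the square root of F. The interaction had a fit of its own. CPM use TMM-scaled library sizes, except those of the cell type markers, which use total counts. Log2 CPM and the values within a batch use a prior count of 2. Ratios between batches were tested by exact permutation. The edgeR treatment test was run on simulated counts with known changes. Counts include any PCR duplicates.

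The members, lists and tests were chosen with earlier results of these data known. Named were the members, Klf4, Actr3b, from each list up to 4 called genes with the smallest adjusted p, and the 3 genes most like Arpc5; other genes in the text were added by role or position after the values were seen. Of the 6 lists, 1 enters the totals and is otherwise not reported here. Alternatives left out the batch term, batch 2, the filter or each library in turn, or used a block for replicate number, size factors or the Wald test of DESeq2 1.42.0, or kept genes averaging 5 CPM. Libraries were not paired by replicate number in the main fit. The correlation between libraries with the same number, each taken relative to its treatment mean, was 0.49, 0.42, 0.72 and -0.34. Once batch was also taken out it was -0.00053, -0.040, -0.30 and 0.12. Batch 2 held a single Klf4 siRNA library, so these values cannot show whether libraries were paired. The smallest chi-square per degree of freedom between any of the 28 pairs of libraries was 11.1, so no library was a copy of another. Besides alpha and leukocyte cells, markers of 6 other cell types were summed: beta (109 to 151 CPM), delta and PP (at most 0.205), acinar (at most 7.31), duct (at most 4.46), endothelial (at most 0.436) and fibroblast (at most 26.6).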

Additional observations from a re-analysis of the deposited data

Results flagged for a closer look

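The levels of the 9 members and 19 other named genes were examined for a library far from the rest of its treatment, as the distance from its closest neighbour divided by the spread from lowest to highest. A limit that about 1 in 20 groups passes by chance (2.8 of the 56 examined) was passed by 5. Each treatment holds both batches and batch was not taken out, so that rate does not hold where a gene follows batch. In batch 2, Klf4 siRNA replicate 3 was the highest of its group for Arpc1b (distance 0.834 of the spread) and Actr3b (0.884). Klf4 siRNA replicate 1 was the lowest of its group for Arpc3 (0.867), Actr3 (0.852) and Actr10 (0.938). The ranges behind the last 3 are narrow: Actr3 spanned 358.1 to 379.7 CPM, Arpc3 122.7 to 130.3 CPM and Actr10 73.0 to 75.9 CPM in Klf4 siRNA libraries.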

How the results depend on the processing

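The log2 value of Arpc5 against the median of the other subunits was -0.681 and lay between -0.731 and -0.654 in every alternative run. The count of members that differed between batches was 3 in all alternatives but the one without Klf4 siRNA replicate 3 (2, Arpc5 being lost), and leaving out a library gave 2 to 3. The Arpc1b to Arpc1a ratio differed between batches by 0.924 to 1.03 on the log2 scale with each library left out. Of all genes, 409 were called without the batch term, 1232 in batch 1 alone and 1220 with a replicate block, against 1909; of the list genes these fits called 6, 12 and 11, against 20. Leaving out each library gave 934 to 2021 of all genes and 11 to 19 list genes. The causes of these moves were not tested. The replicate block took the place of the batch term, and under it the value of Arpc5 against the others was -0.684; Jmy (edgeR adjusted p = 0.0525) and Coro1b (0.0606) were among the list genes lost. The Arpc5 share of the Arpc5 and Arpc5l pair with other lengths was computed after the data were seen; without any length it was 64.7% in scramble and 52.7% in Klf4 siRNA libraries. No called result changed sign. Among values near 0, Arpc2 by treatment was 0.018, but -0.038 without the batch term and -0.036 with the replicate block, and Arpc5l, Actr3 and Actr3b by treatment and Actr2 by batch also changed sign in at least 1 alternative. Arpc1b, at 399 to 1281 counts, had the least precise values.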
